A study of Homo sapiens with 6 samples.

Results

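The 37 genes of the human mitochondrial chromosome were followed in M14, an established human melanoma cell line, by sequencing of polyadenylated RNA. Members were all genes that GENCODE release 29 places on chromosome M of GRCh38: 13 protein-coding, 22 tRNA and 2 rRNA genes, which is 37 of the 58395 genes in the deposited table. The cells had grown unattached, as melanospheres, which are floating spheres of melanoma cells. The spheres were broken up mechanically, stained with an antibody against CD20, a surface antigen best known from B cells, and sorted by flow cytometry. All 6 libraries share the line and the culture, and the 2 groups are 3 CD20-positive and 3 CD20-negative fractions, numbered as replicates 1 to 3 in each. Whether the replicates were separate cultures is not in the labels. The p-values therefore measure only how these samples spread, and that spread may be technical.

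Mitochondrial DNA is a small circle with a heavy and a light strand, and both are transcribed as long precursors that run through many genes. The tRNA genes sit between most of the longer genes, and cutting the tRNAs out of the precursor releases the mRNAs and rRNAs, most of which then receive short poly(A) tails. All 13 mRNAs encode core subunits of the respiratory chain or of ATP synthase, and the rRNAs and tRNAs serve the mitochondrial ribosome that translates them.

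The annotation puts 28 of the genes on the plus strand of the reference, whose RNAs come from the heavy-strand promoter, and 9 on the minus strand, whose RNAs come from the light-strand promoter. The 9 are MT-ND6 and the tRNA genes MT-TQ, MT-TA, MT-TN, MT-TC, MT-TY, MT-TS1, MT-TE and MT-TP. The TruSeq RNA kit named in the labels does not mark strand, so "strand" here is that of the annotated gene, and RNA copied from the opposite strand cannot be told apart from the gene's own. Of 36 neighbouring pairs along the chromosome, 20 abut with no gap and 5 overlap. Of the 13 mRNA genes, 6 end in an unfinished stop codon that the poly(A) tail is known to complete. Base composition follows the strand: MT-ND6 is 35.6% G and 7.05% C as read from its own transcript, whereas the plus-strand mRNA genes are 6.28 to 16.2% G. Across all classes, minus-strand genes hold 23.5 to 36.1% G and plus-strand genes 6.28 to 19.1% G.

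The sequences below are GENCODE release 29 transcripts on GRCh38, chosen because the results turn on them. In the first group the capitals mark the anticodon that a script located. MT-TN and MT-TC lie on the minus strand at chrM:5657-5729 and chrM:5761-5826 and flank a gap of 31 bases, the known light-strand replication origin. MT-TP, also on the minus strand, lies at chrM:15956-16023 and borders the control region. MT-TE lies on the minus strand at chrM:14674-14742, and MT-TH and MT-TG on the plus strand at chrM:12138-12206 and chrM:9991-10058.
MT-TN: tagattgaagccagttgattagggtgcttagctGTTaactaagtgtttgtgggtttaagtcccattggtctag
MT-TC: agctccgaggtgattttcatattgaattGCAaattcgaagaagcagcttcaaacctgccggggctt
MT-TP: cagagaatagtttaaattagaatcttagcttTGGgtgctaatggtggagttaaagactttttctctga
MT-TE: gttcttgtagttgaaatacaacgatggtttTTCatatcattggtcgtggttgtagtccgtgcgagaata
MT-TH: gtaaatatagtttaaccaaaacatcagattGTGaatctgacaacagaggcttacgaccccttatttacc
MT-TG: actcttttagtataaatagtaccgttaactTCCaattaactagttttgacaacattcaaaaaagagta

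The second group shows how tightly the plus-strand transcript is packed. The first line is the stretch of 46 bases that MT-ATP8 and MT-ATP6 share at chrM:8527-8572, with the start codon of MT-ATP6 in capitals. The other lines join the last 15 bases of an mRNA gene to the first 15 of the tRNA gene after it, at chrM:12123-12152, chrM:15873-15902 and chrM:9976-10005, with the unfinished last codon in capitals.
MT-ATP8 and MT-ATP6 overlap: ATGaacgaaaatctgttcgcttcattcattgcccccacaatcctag
MT-ND4 to MT-TH: ccgggttttcctctTgtaaatatagtttaa
MT-CYB to MT-TT: tactcaaatgggccTgtccttgtagtataa
MT-CO3 to MT-TG: attgatgagggtctTactcttttagtataa

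Levels are in FPKM (fragments per kilobase of exon, scaled by a library size that the authors set). The fragments behind them were recovered from the values and the annotated lengths. The CD20-negative libraries held 16666544 to 17915936 fragments and the CD20-positive ones 15651172 to 17479732. MS4A1, which encodes CD20, checked the sort: it measured 0.225, 0.263 and 0.403 FPKM in CD20-negative replicates 1 to 3 and 1.24, 0.966 and 1.28 FPKM in CD20-positive ones, with no overlap (3.91-fold, two-sided exact permutation test, p = 0.1, which is the lowest possible with 3 against 3). Of the 8 melanocytic markers, SOX10, MLANA and TYR reached at most 0.0717, 0.262 and 0.0207 FPKM in any library, so the melanocytic label is not borne out by its defining markers, apart from PMEL and a low level of MITF. The summed melanocytic level was 11.1 to 21.4 FPKM in CD20-negative and 17.4 to 35.7 FPKM in CD20-positive libraries. Of the B-lineage markers besides MS4A1, CD79A reached at most 0.135 FPKM and PAX5 at most 0.057 FPKM in any library. The summed level of 8 epithelial markers was 414 to 556 against 509 to 646 FPKM. Most of this sum was KRT8, KRT18 and KRT19, while CDH1, KRT5 and KRT14 reached at most 0.121, 0.118 and 0.0273 FPKM in any library. The summed melanocytic and epithelial levels overlapped between the groups. In the fit that pairs same-numbered libraries, described further on, 1 melanocytic and 4 epithelial genes were tested, and 1 of each rose. These were PMEL, by 0.75 on the log2 scale (limma adjusted p = 2.7e-05), and KRT17, by 0.69 (limma adjusted p = 0.000368). Of all 4503 genes tested in that fit 9.93% rose, and with so few markers tested these counts do not set the lists apart. The part of these markers in the results that follow was not tested.

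The 37 genes took a larger share of the RNA in every CD20-positive library. They held 4.25%, 5.73% and 5.06% of all fragments in CD20-negative replicates 1, 2 and 3, and 20.6%, 11.9% and 17.4% in CD20-positive replicates 1, 2 and 3. The groups did not overlap. In the CD20-positive group replicate 2 was the lowest and replicate 1 the highest. The means were 5.01 ± 0.739% and 16.6 ± 4.39% (SD, n = 3), a 3.32-fold ratio, and the ratio within same-numbered libraries was 4.85, 2.08 and 3.43. By summed FPKM, which weights short genes more, the shares were 16%, 21.0% and 19.1% against 52.3%, 39.3% and 49.3%. A larger amount of these RNAs in every cell and a larger number of cells rich in them cannot be told apart in bulk libraries.

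The higher level held along the whole chromosome. The mean was higher in CD20-positive libraries for 37 of 37 genes, and 36 of 37 were higher within all 3 same-numbered pairs, the exception being MT-TL2 in pair 1 with a ratio of 0.933. In 27 of 37 genes no CD20-positive library overlapped a CD20-negative one, against 12.3% of the 4503 genes that averaged at least 10 FPKM and 5.9% of the 29267 genes with any fragment. The 27 comprised 13 of 13 mRNA genes, 2 of 2 rRNA genes and 12 of 22 tRNA genes, or 19 of 28 plus-strand and 8 of 9 minus-strand genes. The median log2 difference over all 37 was 1.79, with 1.82 for mRNA, 1.97 for rRNA and 1.69 for tRNA genes, and 1.78 for plus-strand against 1.89 for minus-strand genes. The median of all genes tested was -0.01. Scaling every library to the same total of all genes moved that median to -0.50 and the mRNA median to 1.30. Quantile normalisation, which gives the most abundant genes nearly the same value in every library, turned MT-CO2, MT-CO3, MT-ATP6 and MT-ND4 to between -0.15 and -0.03. No other scaling tried turned a tested member.

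**Figure D1:**
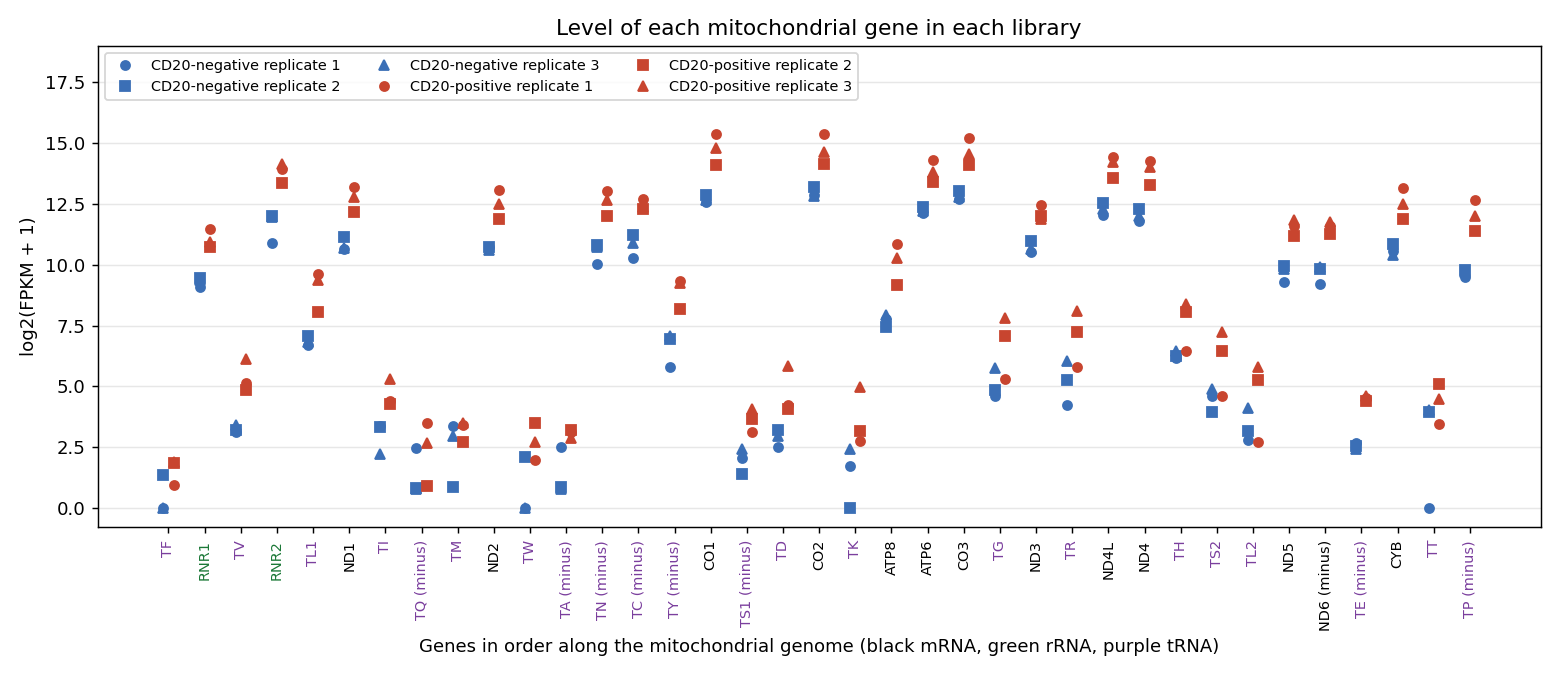
Level of each of the 37 genes in each library, as log2(FPKM + 1), with genes in their order along the chromosome and the minus-strand genes marked; blue is CD20-negative, red CD20-positive, and the marker shape gives the replicate. All 13 mRNA genes and both rRNA genes have every red point above every blue one, while several tRNA genes overlap.

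The test across all genes was limma on log2(FPKM + 1) of the genes that averaged at least 10 FPKM, with Benjamini-Hochberg adjustment over all 4503. It took in 30 of the 37 members and left out MT-TF, MT-TQ, MT-TM, MT-TW, MT-TA, MT-TS1 and MT-TK, and 5 of the 30 (MT-TV, MT-TI, MT-TD, MT-TE and MT-TT) passed the filter only through their CD20-positive level. Without the replicate block, 1 member rose, MT-TE, where 0.0222% of all genes did. The adjusted p of the mRNA genes was 0.109 to 0.147 in limma without the block. With the replicate number added as a block, called the paired fit here, 25 of 30 rose, against 9.93% of all genes: 13 of 13 mRNA, 2 of 2 rRNA and 10 of 15 tRNA genes. MT-TD, MT-TI, MT-TL2, MT-TS2 and MT-TT did not pass. The paired fit has few residual degrees of freedom and borrows its spread from all genes. With each gene's own spread it called 0 genes, with 606 genes and 14 members at an unadjusted p under 0.05.

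At a filter of 1 FPKM the paired fit called 21 of 37 members, against 3.19% of all genes that rose and 2.64% that fell, and MT-CO2, MT-CO3, MT-ATP6 and MT-ND4L were among those that no longer passed. With voom on the recovered fragments and no filter, a setting chosen after seeing the data, 13 of 37 members rose without the block, against 0.0821% of all genes that rose and 0.0274% that fell. CD20-positive replicate 1 weighed on these calls. Without it, limma without the block called 29 of the 30 members and 792 genes in all, although the median mRNA difference was smaller, at 1.58. Leaving out CD20-positive replicate 2 or 3 or CD20-negative replicate 2 or 3 ended the call of MT-TE, and all 4 of these fits called 0 genes, with 279 to 463 genes at an unadjusted p under 0.05.

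The mRNAs of complex IV, cytochrome c oxidase, were the most abundant per length. MT-CO1, the catalytic subunit (chrM:5904-7445), measured 6136, 7582 and 6570 FPKM in CD20-negative replicates 1 to 3 and 42148, 17637 and 28326 FPKM in CD20-positive ones. Each CD20-positive library was above all CD20-negative ones, and replicate 1 was the highest by a wide margin. The means were 6763 ± 742 and 29370 ± 12288 FPKM (SD, n = 3), a log2 difference of 2.04 ± 0.38 (SE; limma adjusted p = 0.109 without the block and 0.0108 paired). Each SE of a log2 difference given here and below is from limma without the block. In the paired fit the SE of MT-CO1 was larger, 0.64. Its unadjusted limma p was also larger, 0.00141 paired against 0.000846, and only the adjustment over all genes made the paired value lower. The unadjusted p was likewise larger paired for MT-CO2, MT-CO3, MT-ATP6, MT-ND3, MT-ND4 and MT-ND4L. MT-CO2, the subunit that accepts electrons from cytochrome c (chrM:7586-8269), measured 7395, 9474 and 7320 against 42636, 18098 and 25419 FPKM. MT-CO3, a structural core subunit (chrM:9207-9990), measured 6606, 8496 and 7050 against 38324, 17433 and 23911 FPKM. Both repeated the order of MT-CO1 in the CD20-positive group, with log2 differences of 1.75 ± 0.38 and 1.78 ± 0.37 (SE; limma adjusted p = 0.147 and 0.122, and 0.0366 and 0.03 paired). Within a library, the ratio of MT-CO1 to MT-CO2 was 0.830, 0.800 and 0.897 in CD20-negative and 0.989, 0.975 and 1.11 in CD20-positive libraries. The groups did not overlap in this ratio, which was chosen after its values were seen and has no test.

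Complex I, NADH dehydrogenase, takes 7 of its subunits from this chromosome. MT-ND4, part of the proton-pumping membrane arm (chrM:10760-12137), measured 3572, 4955 and 4165 FPKM in CD20-negative and 19548, 9892 and 16826 FPKM in CD20-positive replicates 1 to 3, a log2 difference of 1.82 ± 0.35 (SE; limma adjusted p = 0.109 without the block, 0.00968 paired). MT-ND4L (chrM:10470-10766), which overlaps MT-ND4 by 7 bases, followed it: 4255, 6004 and 5085 against 22067, 12136 and 18938 FPKM. Neither gene overlapped between groups, and their ratio, 1.13 to 1.23 in all 6 libraries, did not separate them (exact permutation test, p = 0.4, adjusted 0.84 over 7 ratios).

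MT-ND1 and MT-ND2, also subunits of the membrane arm, stood at 1606 to 2265 and 1539 to 1719 FPKM in CD20-negative libraries and at 4612 to 9439 and 3797 to 8525 FPKM in CD20-positive ones, folds of 3.83 and 3.64. MT-ND3 had the smallest fold of the mRNA genes, at 2.64. It measured 1468, 2027 and 1618 against 5603, 4108 and 3809 FPKM, and it was the one mRNA whose lowest CD20-positive library was replicate 3. MT-ND5, the largest of the subunits (chrM:12337-14148), measured 629, 984 and 903 against 3110, 2334 and 3687 FPKM. Here replicate 3 was the highest of the CD20-positive group. Paired adjusted p-values of these 4 genes from limma were 4.58e-05 to 0.0115.

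MT-ND6 is the only mRNA gene on the minus strand (chrM:14149-14673), meets MT-ND5 end to end with no gap, and encodes a membrane-arm subunit. It measured 584, 905 and 968 FPKM in CD20-negative and 3085, 2439 and 3463 FPKM in CD20-positive replicates 1 to 3. The groups did not overlap, and as for MT-ND5 replicate 3 was the highest of the CD20-positive group. The log2 difference was 1.89 ± 0.29 (SE; limma adjusted p = 0.109, paired 3.05e-05), beside 1.86 ± 0.29 for MT-ND5. The level of MT-ND6 relative to MT-ND5 was 0.928, 0.920 and 1.07 in CD20-negative and 0.992, 1.04 and 0.939 in CD20-positive libraries. Both genes thus stood within 10% of each other per length in every library, and the ratio did not separate the groups (exact permutation test, p = 0.8, adjusted 0.933). Relative to MT-CYB, the plus-strand gene beyond MT-TE, MT-ND6 ranged from 0.334 to 0.715 with both groups interleaved (exact permutation test, p = 1).

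MT-CYB encodes cytochrome b, the only complex III subunit made in mitochondria (chrM:14747-15887). It measured 1511, 1867 and 1354 FPKM in CD20-negative and 9247, 3729 and 5815 FPKM in CD20-positive replicates 1 to 3. The groups did not overlap, with a log2 difference of 1.90 ± 0.37 (SE; limma adjusted p = 0.116, paired 0.000415). For complex V, ATP synthase, MT-ATP6 encodes the subunit that forms the proton channel with the rotor (chrM:8527-9207). It measured 4532, 5368 and 4797 against 20098, 10695 and 14329 FPKM, 3.07-fold. MT-ATP8, a short accessory subunit (chrM:8366-8572), measured 215, 173 and 242 against 1850, 566 and 1245 FPKM. At 5.82-fold it had the largest fold of the mRNA genes, with a log2 difference of 2.39 ± 0.43 (SE; limma adjusted p = 0.109, paired 5.82e-14).

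The 2 genes share the 46 bases printed above, and fragments there can be assigned to either or to neither, depending on counting settings, which the sources used here do not give. The level of MT-ATP8 relative to MT-ATP6 was 0.0473, 0.0323 and 0.0503 in CD20-negative and 0.0921, 0.0529 and 0.0869 in CD20-positive libraries. All CD20-positive values were higher, by 0.82 on the log2 scale, and the exact permutation test gave p = 0.1, the smallest possible, and 0.7 after adjustment over the 7 ratios. MTATP6P1, a nuclear copy of MT-ATP6, held 9.82 to 11.8% as many fragments as MT-ATP6 itself, the largest such value among the nuclear copies that were looked at by gene. MTND2P28 held 6.11 to 7.20% of the MT-ND2 number and MTCO1P12 held 0.927 to 1.08% of the MT-CO1 number. In all, 55 of 417 nuclear copies had fragments, which came to 1.07 to 1.32% of the members' own, and these 3 copies held 98.9 to 99.8% of that. Reads from a gene and its near-identical copy cannot be told apart here. How reads that match both were assigned or dropped is not given in the sources used here. The shares therefore count only what was assigned to the copies, and the size of the uncertainty in the members' levels is not known.

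**Figure D2:**
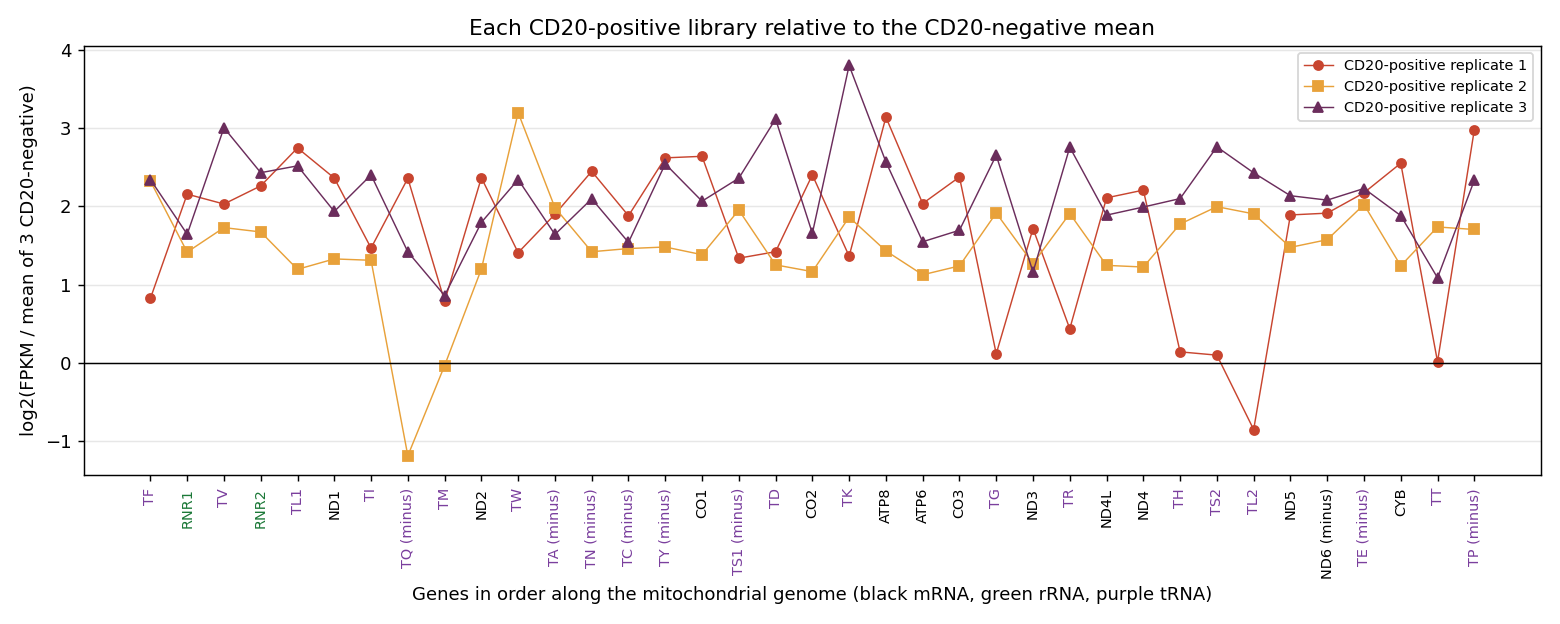
Each CD20-positive library divided by the mean of the 3 CD20-negative libraries, as log2 of the FPKM ratio, for the 37 genes in chromosome order. Replicate 1 (circles) is the highest in 11 of 13 mRNA genes and drops toward 0 or below at MT-TG, MT-TR, MT-TH, MT-TS2, MT-TL2 and MT-TT, where replicates 2 and 3 stay high; under quantile normalisation MT-CO2, MT-CO3, MT-ATP6 and MT-ND4 turn direction.

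Within the mitochondrial RNA, the shares of the transcript classes overlapped between the fractions. The mRNA genes held 90.6%, 86.2% and 84.4% of mitochondrial fragments in CD20-negative and 87.8%, 83.7% and 82.7% in CD20-positive replicates 1 to 3. The rRNA genes held 8.80%, 13% and 14.8% against 11.5%, 15.5% and 16.6%, and the tRNA genes 0.584%, 0.711% and 0.754% against 0.677%, 0.779% and 0.719%. The groups overlapped in all 3 classes, and replicate 1 had the highest mRNA share and the lowest rRNA share in both. Within same-numbered pairs, the rRNA share was higher in CD20-positive libraries in all 3 (ratios of 1.31, 1.19 and 1.12) and the mRNA share lower in all 3 (0.969, 0.971 and 0.980). Minus-strand genes held 1.31%, 1.55% and 1.80% against 1.32%, 1.82% and 1.66%, also overlapping.

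By respiratory complex, complex IV mRNAs held 44.6 to 52.1% of mitochondrial fragments over the 6 libraries, complex I 25.4 to 29% and complex III 3.37 to 4.42%, all with overlap between groups. Complex V was the exception: 7.88%, 6.89% and 7.24% in CD20-negative and 5.90%, 6.36% and 5.60% in CD20-positive libraries. Every CD20-positive value was below every CD20-negative one, with means of 7.34 ± 0.501% and 5.95 ± 0.380% (SD, n = 3). This share is almost wholly MT-ATP6, whose fold of 3.07 was among the smaller ones, while MT-ATP8 had the largest fold of the mRNA genes. A score over members was given no test.

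**Figure D3:**
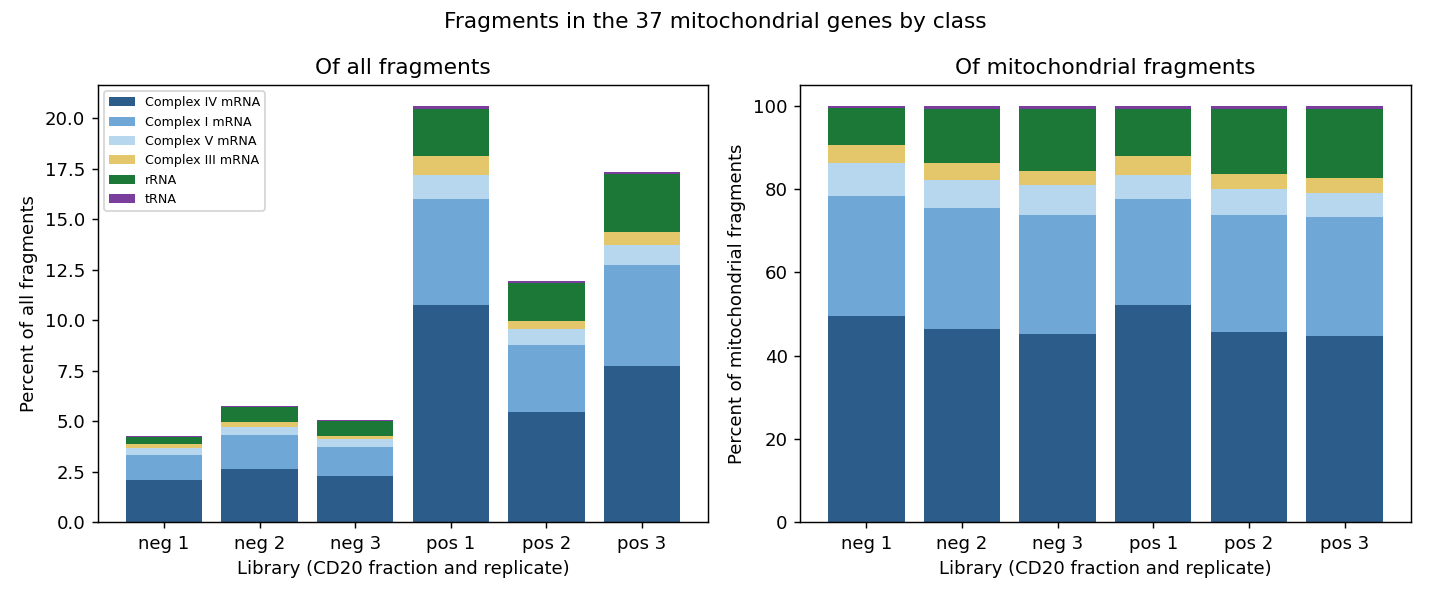
Fragments of the 37 genes by class in each library, as a percent of all fragments (left) and of mitochondrial fragments (right); neg and pos are CD20-negative and CD20-positive, with the replicate number, and complexes are those of the respiratory chain and ATP synthase. The bars on the left span 4.25 to 5.73% in CD20-negative and 11.9 to 20.6% in CD20-positive libraries, whereas on the right the groups overlap in every band except complex V, which is thinner in CD20-positive libraries.

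MT-RNR2, the large-subunit (16S) rRNA of the mitochondrial ribosome (chrM:1671-3229), measured 1911, 4055 and 3962 FPKM in CD20-negative and 15873, 10556 and 17841 FPKM in CD20-positive replicates 1 to 3. The groups did not overlap, and CD20-negative replicate 1 was at less than 0.5 of the level of its group's others. The log2 difference was 2.20 ± 0.40 (SE; limma adjusted p = 0.109, paired 0.000758). MT-RNR1, the small-subunit (12S) rRNA that precedes it (chrM:648-1601), measured 541, 699 and 652 against 2812, 1683 and 1971 FPKM, a log2 difference of 1.75 ± 0.27 (SE; limma adjusted p = 0.109, paired 3.94e-05). Although both come from the same end of the plus-strand transcript, MT-RNR1 stood at 0.283, 0.172 and 0.165 of MT-RNR2 in CD20-negative and 0.177, 0.159 and 0.110 in CD20-positive libraries, overlapping between groups (exact permutation test, p = 0.3, adjusted 0.84). The ratio of MT-RNR2 to MT-ND1, the next mRNA gene, was 1.19, 1.79 and 2.42 against 1.68, 2.29 and 2.54 (exact permutation test, p = 0.6). Within each group this ratio was lowest in replicate 1 and highest in replicate 3. In all 3 same-numbered pairs, MT-RNR2 to MT-ND1 was higher and MT-RNR1 to MT-RNR2 lower in the CD20-positive library, and no paired test of these ratios was run. Libraries were made from polyadenylated RNA, so these levels refer to rRNA that was captured with it.

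By mean level per length over the 6 libraries, the mRNA and rRNA genes ranked MT-CO2, MT-CO1, MT-CO3, MT-ND4L, MT-ATP6, MT-ND4, MT-RNR2, MT-ND1, MT-CYB, MT-ND2, MT-ND3, MT-ND5, MT-ND6, MT-RNR1 and MT-ATP8. The order was not that of the genes along the plus-strand transcript. Several neighbours in it were not apart in every library: MT-CO1 exceeded MT-CO3 in 3 of 6, MT-CYB exceeded MT-ND2 in 3 of 6, and MT-ND5 exceeded MT-ND6 in 4 of 6. In contrast, MT-CO3 exceeded MT-ND4L, MT-ND1 exceeded MT-CYB, and MT-RNR1 exceeded MT-ATP8 in 6 of 6. Members took 11 of the 15 highest mean FPKM values in CD20-negative and 14 of 15 in CD20-positive libraries.

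Among the tRNA genes, levels spanned more than 3 orders of magnitude, and the few high ones were mostly on the minus strand. MT-TN, MT-TC, MT-TY and MT-TP, for asparagine, cysteine, tyrosine and proline, held 89.3 to 94.9% of all tRNA gene fragments in each library. Mature tRNAs are not polyadenylated as mRNAs are, and a gene of 59 to 75 bases can be shorter than the fragments sequenced, so mature tRNA, precursors and neighbouring transcripts that reach into the gene cannot be told apart. A level per length is for the same reason less exact for these genes than for the mRNAs. How fragments that cross from a tRNA gene into its neighbour were assigned or dropped is not given in the sources used here. The part of such counting in the order of the tRNA genes, and in the difference by strand, was not tested.

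MT-TN had the highest mean level of the tRNA genes over all 6 libraries, although MT-TC exceeded it in 4 of 6 and in the CD20-negative mean. MT-TN measured 1045, 1821 and 1716 FPKM (1434, 2370 and 2478 fragments) in CD20-negative and 8333, 4088 and 6533 FPKM (9190, 4785 and 7540 fragments) in CD20-positive replicates 1 to 3. MT-TC, across the gap of 31 bases from it, measured 1237, 2360 and 1907 against 6756, 5052 and 5337 FPKM. The groups did not overlap in either gene, and the log2 differences were 2.03 ± 0.37 and 1.68 ± 0.32 (SE; limma adjusted p = 0.109 for both, 0.000145 and 0.00266 paired). MT-TA, which lies on the same strand 1 base beyond MT-TN, had 0.733 to 4.63 FPKM in CD20-negative and 6.42 to 8.14 FPKM in CD20-positive libraries. It rested on 1 to 9 fragments per library. MT-TN and MT-TA, annotated on the same strand, thus differed widely in level. Which transcripts their fragments came from cannot be told here.

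MT-TP measured 730, 874 and 830 against 6396, 2645 and 4090 FPKM, a log2 difference of 2.34 ± 0.35 (SE; limma adjusted p = 0.109, paired 3.25e-07). It borders the control region on one side, and in CD20-negative libraries its level lay within the range of MT-ND5. MT-TF, for phenylalanine, borders the control region on the other side and is the first gene of the plus-strand transcript, yet it had 0, 2 and 0 fragments against 1, 3 and 3. MT-TY, which overlaps MT-TC by 1 base, and MT-TL1, for leucine UUR and on the plus strand, stood at 54.8 to 132 and 103 to 135 FPKM in CD20-negative and at 288 to 635 and 268 to 785 FPKM in CD20-positive libraries. In all 5 of MT-TN, MT-TC, MT-TY, MT-TP and MT-TL1 the groups did not overlap, CD20-positive replicate 1 was the highest and replicate 2 the lowest, as in most mRNAs.

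The lowest of the tRNA genes besides MT-TF were MT-TW, for tryptophan, and MT-TQ, for glutamine. MT-TW had 0, 4 and 0 fragments in CD20-negative and 3, 11 and 6 in CD20-positive replicates 1 to 3, and MT-TQ had 6, 1 and 1 against 11, 1 and 6. Both overlapped between groups and missed the filter of 10 FPKM, as did MT-TF. At a filter of 1 FPKM, limma gave the 3 genes an adjusted p of 0.427 to 0.706 without the block. Paired at that filter, MT-TW (limma adjusted p = 0.0115) and MT-TF (0.0467) passed and MT-TQ (0.298) did not. Their counting intervals were wide: the pooled CD20-positive to CD20-negative ratio, corrected for library size, was 6.01 (exact 95% interval 2.01 to 24.2) for MT-TW, 2.70 (1.12 to 7.19) for MT-TQ and 4.21 (0.801 to 41.5) for MT-TF. These intervals cover counting error only.

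MT-TE, for glutamate, was the member called without the block, and it passed the filter of 10 FPKM only through its CD20-positive level. It had 7, 6 and 6 fragments in CD20-negative and 23, 22 and 25 in CD20-positive replicates 1 to 3, or 5.40, 4.88 and 4.40 against 22.1, 19.9 and 22.9 FPKM. The CD20-positive libraries lay well above the others, as for the abundant mRNAs. They also lay close together, which was not so for those mRNAs. The log2 difference was 1.94 ± 0.14 (SE; limma adjusted p = 0.00702, range 0.00515 to 0.213 over the fits without the block, in 10 of 17 of which it passed). The spread between libraries was smaller than counting alone gives: the SD of the fragment counts was 0.577 and 1.53, where Poisson counting at these means gives 2.52 and 4.83. On the log2 scale the counting error of the difference was 0.37, above the fitted SE of 0.14. From the pooled 19 against 70 fragments the ratio was 4.43 (exact 95% interval 2.64 to 7.79, counting error only), which takes in the folds of MT-ND6 next to it and of most mRNAs. The ratio of MT-TE to MT-ND6 did not separate the groups (exact permutation test, p = 0.5).

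A set of 8 plus-strand tRNA genes behaved unlike the mRNAs beside them in CD20-positive replicate 1. The set, MT-TF, MT-TW, MT-TG, MT-TR, MT-TH, MT-TS2, MT-TL2 and MT-TT, was collected after the values were seen, as the tRNA genes whose CD20-positive replicate 1 was at or below the highest CD20-negative library and whose replicates 2 and 3 lay above it, so it has no test. In FPKM, MT-TL2 alone of the 8 was below every CD20-negative library in CD20-positive replicate 1. MT-TH, for histidine, shows it with the most fragments: 92, 93 and 117 in CD20-negative replicates 1 to 3, 89 in CD20-positive replicate 1, and 293 and 362 in CD20-positive replicates 2 and 3. In FPKM these were 70.9, 75.6 and 85.7 against 85.4, 265 and 332. MT-ND4, which abuts MT-TH at the junction printed above, was in contrast highest in CD20-positive replicate 1, so that MT-TH stood at 0.0199, 0.0153 and 0.0206 of MT-ND4 in CD20-negative libraries and at 0.00437, 0.0268 and 0.0197 in CD20-positive ones.

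The other junctions shown differed in this. MT-TG, for glycine, had 30, 34 and 72 fragments in CD20-negative and 39, 144 and 237 in CD20-positive replicates 1 to 3, and relative to MT-CO3 before it the lowest library was CD20-positive replicate 1, as for MT-TH. MT-TT, for threonine, had 0, 17 and 20 against 10, 35 and 22 fragments. Relative to MT-CYB before it, MT-TT stood at 0, 0.00774 and 0.0113 in CD20-negative and 0.00108, 0.00887 and 0.00363 in CD20-positive libraries, so there the lowest library was CD20-negative replicate 1 and CD20-positive replicate 1 came next. MT-TR, for arginine, had 22, 43 and 83 against 53, 156 and 277. MT-TS2 and MT-TL2, for serine AGY and leucine CUN, follow MT-TH directly and had 21 and 6 fragments in CD20-positive replicate 1, against 15 to 33 and 8 to 23 in CD20-negative libraries.

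Summed, the 8 genes had 178, 218 and 348 fragments in CD20-negative and 222, 768 and 1107 in CD20-positive replicates 1 to 3. Per 100000 mitochondrial fragments this was 23.8, 22.8 and 38.4 against 6.16, 41.2 and 39.2. The genes were chosen for a low CD20-positive replicate 1 beside high replicates 2 and 3, so this sum only restates the choice. All 14 plus-strand tRNA genes, which include the 8, held 0.0490%, 0.0450% and 0.0616% of mitochondrial fragments in CD20-negative replicates 1 to 3. In CD20-positive replicates 1 to 3 they held 0.0334%, 0.0629% and 0.0751%, so replicate 1 was the lowest library there too. Fragments in MT-TN, MT-TC, MT-TY and MT-TP, by contrast, made up 0.532%, 0.665% and 0.691% of mitochondrial fragments in CD20-negative and 0.642%, 0.714% and 0.642% in CD20-positive libraries, with replicate 1 of the CD20-positive group in the range of the rest. CD20-positive replicate 1 was also the library with the largest mitochondrial share and, among all 6, the fewest genes at 1 FPKM or more, 12673 against 12738 to 13492. The part of these features in the tRNA values was not tested.

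**Figure D4:**
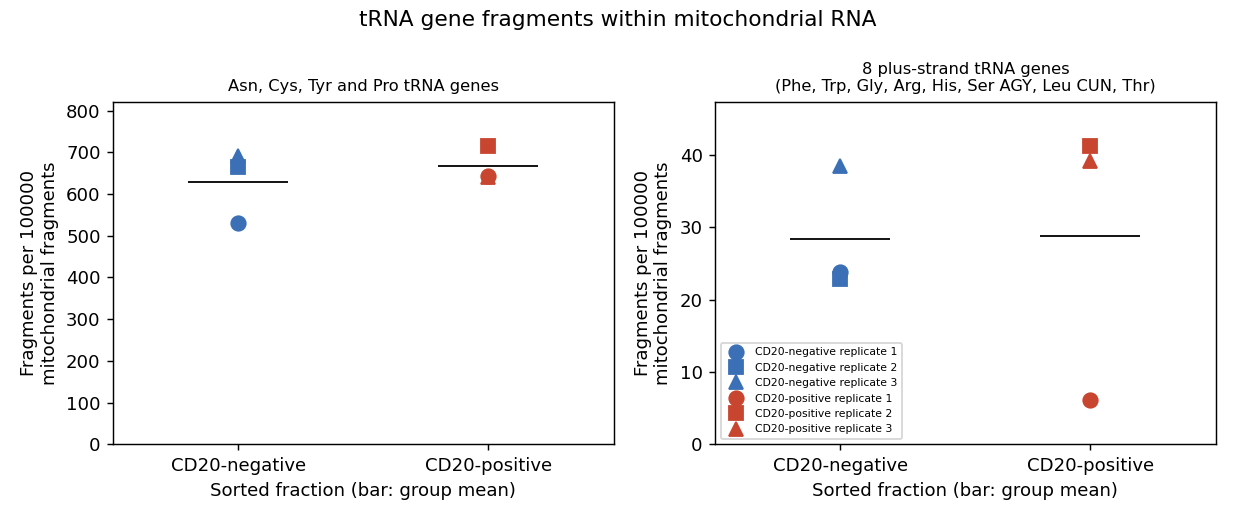
Fragments per 100000 mitochondrial fragments in the asparagine, cysteine, tyrosine and proline tRNA genes (left) and in the 8 plus-strand tRNA genes collected after their values were seen (right), by sorted fraction, with the group mean as a bar and the marker shape giving the replicate. On the right, where the genes were chosen for a low CD20-positive replicate 1, that library lies at 6.16 and the other 5 at 22.8 to 41.2. On the left it lies among the rest.

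The remaining plus-strand tRNA genes were low but ran differently. MT-TV, for valine and lying between the rRNA genes, measured 7.71, 8.13 and 9.52 FPKM in CD20-negative and 34.5, 28.0 and 67.8 FPKM in CD20-positive replicates 1 to 3, without overlap. MT-TD and MT-TK, for aspartate and lysine, were highest in CD20-positive replicate 3, at 56.7 and 30.7 FPKM, where the other CD20-positive libraries had 15.6 to 17.5 and 5.67 to 8.02 FPKM. MT-TI, for isoleucine, measured 9.25, 8.94 and 3.66 against 20.1, 18.1 and 38.5 FPKM. On the minus strand, MT-TS1, for serine UCN, measured 3.08, 1.63 and 4.40 against 7.67, 11.8 and 15.6 FPKM. Neither overlapped between groups. CD20-positive replicate 3 was the highest of its group in 11 of 14 plus-strand tRNA genes and in 2 of 13 mRNA genes. MT-TM, for methionine, had the smallest fold of all members, 1.51, with an exact 95% counting interval of the pooled ratio of 0.809 to 2.72, and overlapped between groups.

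Nuclear genes that act on this chromosome were read from 2 lists. Of 17 genes for mitochondrial DNA transcription and upkeep, 7 were tested and the median log2 difference was -0.27. None passed in limma without the block, where 0.0222% of all genes rose and none fell, and none in the paired fit, where 9.93% rose and 11.3% fell. Over all 17, the groups did not overlap in 3, TWNK, SSBP1 and RNASEH1, all lower in CD20-positive libraries, against 4.5% of genes with any fragment. That share is over 29267 genes, of which only 13155 averaged at least 1 FPKM, as all 17 did. A share of lower genes at matching levels was not computed. At a filter of 1 FPKM the paired fit called RNASEH1, a nuclease that removes RNA from DNA hybrids, lower (log2 difference -0.57, limma adjusted p = 0.0442). POLRMT, the mitochondrial RNA polymerase, measured 16, 15 and 11 FPKM in CD20-negative and 23.2, 13.9 and 17.9 FPKM in CD20-positive replicates 1 to 3, overlapping (limma adjusted p = 0.498, paired 0.0814). The helicase TWNK and the topoisomerase TOP1MT had log2 differences of -0.27 ± 0.15 and -0.34 ± 0.18 (SE; limma adjusted p = 0.457 and 0.445, paired 0.202 and 0.105). At an unadjusted p under 0.05, 3 of the 7 passed in the paired fit: TFB2M, a transcription factor of this polymerase (log2 difference -0.38), POLRMT and TOP1MT. Of all 4503 genes 1467 passed in the same way, so this count does not set the list apart.

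Of 22 genes for mitochondrial RNA processing and stability, 9 were tested, with a median log2 difference of -0.19. None passed without the block, and in the paired fit 1 rose and 1 fell, against 9.93% and 11.3% of all genes. Over all 22, the groups did not overlap in 1 gene that was higher in CD20-positive libraries, FASTK. They also did not overlap in 2 that were lower, FASTKD3 and TRNT1. Of genes with any fragment, 5.9% were higher and 4.5% lower in this way, with the same limit as for the first list. SLIRP, whose protein binds mitochondrial mRNAs together with LRPPRC and is known to stabilise them, fell. It measured 47.7, 28.1 and 23.9 FPKM in CD20-negative and 24.5, 13.8 and 9.81 FPKM in CD20-positive replicates 1 to 3. The groups overlapped through replicate 1, but each CD20-positive library was below its same-numbered partner, and the log2 difference was -1.04 ± 0.36 (SE; limma adjusted p = 0.298, paired 2.19e-09). FASTK, whose mitochondrial form is known to be needed for MT-ND6 mRNA, rose in the paired fit. It measured 30.1, 37.6 and 31.1 against 48.6, 43.0 and 50.8 FPKM without overlap, a log2 difference of 0.52 ± 0.16 (SE; limma adjusted p = 0.244, paired 0.0136, and 0.0779 paired at a filter of 1 FPKM). GRSF1, an RNA-binding protein of mitochondrial RNA granules, had a log2 difference of -0.22 ± 0.16 (SE; limma adjusted p = 0.558).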

How the data were processed

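The deposited table gives 1 value per Ensembl gene and library without a stated unit. The values are FPKM set by the authors: multiplied by GENCODE release 29 exon length they gave whole multiples of 1 step per library for 98.1 to 98.6% of low values (up to 20 fragments, tolerance 0.02). The step implies a library size 1.07, 1.07 and 1.10 times the recovered fragments in CD20-negative replicates 1 to 3. In CD20-positive replicates 1 to 3 it was 0.864, 1.02 and 0.971 times. Ratios of CD20-positive to CD20-negative FPKM are therefore larger than those of fragment shares, most of all for CD20-positive replicate 1. The submitters' processing notes name GRCh38, HISAT2, featureCounts 1.5.0 and DESeq2 without settings. Of the identifiers, 120 did not match release 29 and held 0.0154% of summed FPKM.

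Genes that averaged at least 10 FPKM were tested with limma 3.58.1 (R 4.3.3, trend and robust prior) on log2(FPKM + 1), CD20-positive minus CD20-negative, at an adjusted p under 0.05, after checks on simulated data. Fold changes on this scale understate those of low genes. Single ratios had two-sided exact permutation tests. Same-numbered libraries were treated as pairs. Their deviations from the group means correlated at 0.73, 0.25 and 0.65 for replicates 1, 2 and 3. With the numbers swapped, CD20-negative replicate 2 correlated at 0.59 with CD20-positive replicate 3, and CD20-negative replicate 3 at 0.54 with CD20-positive replicate 2. The data thus set replicate 1 apart but do not show which libraries of replicates 2 and 3 belong together, and every paired value rests on the numbers. The labels do not say what the numbers share.

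All members could be named. Full statistics went to the rRNA and mRNA genes, the 3 highest and 3 lowest tRNA genes by mean FPKM and members called, and up to 3 genes with the smallest p to each nuclear list. The melanocytic, B-lineage and epithelial lists described the libraries. The summed B-lineage level is not reported here. Members and lists were chosen with earlier results of these data known. Alternatives covered the block, pseudocount, filter, scaling, prior, voom on recovered fragments and each library left out.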

Additional observations from a re-analysis of the deposited data

How the results depend on the processing

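limma without the replicate block called 1 gene, MT-TE, and the results below moved from that. With the replicate block it called 954 genes (447 higher, 507 lower) and 25 members. At a filter of 50 FPKM it called 43 genes and 20 members, with no filter 0 and 0 (1612 genes and 33 members at an unadjusted p under 0.05), under scaling to the same total of all genes 1834 (31 higher, 1803 lower) and 23, under quantile normalisation 15 and 5, with voom 0 and 0 (635 and 28 at an unadjusted p under 0.05), and with voom and no filter 32 and 13. Leaving out 1 library gave 0 to 792 genes and 0 to 29 members, highest without CD20-positive replicate 1. Alternatives with the replicate block, chosen after seeing the data, gave 0 and 0 with no filter (2836 and 36 at an unadjusted p under 0.05), 0 and 0 with each gene's own spread, 767 and 21 at a filter of 1 FPKM, 859 and 30 with a plain prior, 1194 and 25 when scaled to the nuclear total, 2452 and 26 when scaled to the total of all genes, and 1212, 887 and 64 genes and 27, 30 and 12 members without replicate 1, 2 and 3; voom with no filter was also chosen then. Quantile normalisation reversed MT-CO2 (-0.0325), MT-CO3 (-0.10), MT-ATP6 (-0.15) and MT-ND4 (-0.0720), and no other alternative reversed a member with a value in the main analysis. The group difference in mitochondrial share was 28.3 percentage points by summed FPKM and 11.6 by fragments. The cause of these shifts was not tested. Both pseudocounts tried and the nuclear-total scaling without the block left the call unchanged. Depth limits the tRNA genes: 6 members never exceeded 20 fragments in a library and 4 had a library with none.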
